A study of Bos taurus with 16 samples.

Results

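Genes of cholesterol synthesis and uptake were examined in CD14+ cells of the pregnant cow. The genes were HMGCS1, IDI1, FDPS, FDFT1, SQLE, LSS and TMEM97, which are 7 of 20593 gene names on the array. They were found as the probes whose gene name, or the symbol in brackets in whose description, is one of these symbols, and each of the 7 was found with 1 probe. A second probe lies under the gene identifier and accession of LSS without that symbol in brackets, and it is given beside the first.

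The study compared CD14+ cells of the endometrium with CD14+ cells of the blood of the same 4 cows. CD14 is the lipopolysaccharide co-receptor on monocytes and macrophages, and the comparison asks how macrophages of the pregnant uterus differ from monocytes in the circulation. Animal 1 was at day 164 of pregnancy, animal 2 at day 239, animal 3 at day 242 and animal 4 at day 248. The labels give no treatment, and the uteri and blood of all 4 were collected at slaughter. Endometrium was taken between the placentomes and dispersed with enzymes, blood came from the heart, and both suspensions were sorted by flow cytometry on CD14. Amplified RNA from both tissues of an animal was hybridized together on 2 arrays in red and green dye, with 1 array for each technical replicate. Between these technical replicates the dyes were exchanged in 3 of the 4 animals. In animal 3 endometrium was in red and blood in green on both arrays, so tissue and dye cannot be told apart in its ratios. The 16 samples are therefore 8 of each tissue, and each tissue has n = 4 animals.

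Cells make cholesterol from acetyl-CoA by the mevalonate pathway. HMGCS1 acts near its start, IDI1 and FDPS build the isoprenoid farnesyl diphosphate, and FDFT1 commits it to sterols as squalene. SQLE and LSS turn squalene into lanosterol, and a series of later enzymes turns lanosterol into cholesterol. When sterols in the endoplasmic reticulum are scarce, INSIG1 lets go of SCAP, which carries the factor SREBF2 to the Golgi, and SREBF2 is cut there and raises the transcription of these enzymes, and macrophages that hold excess cholesterol export it through liver X receptors and their targets.

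The probes are printed because every value below is the signal of 1 or 2 such oligonucleotides, and because the probes of LSS gave different ratios. Each is 60 bases long and is written 5′ to 3′ as in the array files, which give no position on a genome build for it. None of the 8 probes shares a run of 20 bases with any other probe of the array.
HMGCS1 (A_73_117635, XM_609765): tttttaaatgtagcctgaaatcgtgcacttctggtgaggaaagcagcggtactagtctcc
IDI1 (A_73_104725, XM_865810): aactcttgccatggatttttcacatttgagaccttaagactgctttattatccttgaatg
FDPS (A_73_110752, NM_177497): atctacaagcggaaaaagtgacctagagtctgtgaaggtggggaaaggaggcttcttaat
FDFT1 (A_73_118248, NM_001013004): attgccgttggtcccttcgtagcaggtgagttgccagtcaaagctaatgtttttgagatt
SQLE (A_73_111677, XM_604908): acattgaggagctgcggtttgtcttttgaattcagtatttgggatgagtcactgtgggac
LSS (A_73_116565, XM_867837): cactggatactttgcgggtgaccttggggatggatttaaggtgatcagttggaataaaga
LSS second probe (A_73_102919, XM_867837): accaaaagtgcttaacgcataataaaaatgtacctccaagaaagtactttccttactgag
TMEM97 (A_73_101313, NM_001034403): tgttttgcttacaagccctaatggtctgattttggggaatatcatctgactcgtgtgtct
In assembly ARS-UCD2.0 of RefSeq, LSS overlaps the long noncoding RNA LOC132346253, and the other 6 genes overlap no annotated gene.

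Levels are the log2 intensities that the authors normalized, as the mean of the technical replicates of an animal. A log2 ratio is the level in endometrium minus the level in blood of the same animal, and its mean over 4 animals was tested against 0 with limma over 16653 probes, with Benjamini-Hochberg adjustment. Differential expression was called where the fold change exceeded 2 and the adjusted p did not exceed 0.05. By this rule 224 probes were called, or 1.35% of those tested, 1.23% higher in endometrium and 0.12% higher in blood. All 8 probes were well above background in 8 of 8 channels of both tissues, with 0 saturated spots. The technical replicates of an animal differed by at most 0.47 on the log2 scale for any of the 7 genes.

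The direction of every ratio rests on the deposited value table. Each of its 16 columns equaled, at 100% of probes, 1 dye of a scanner file that stands under the animal's other technical replicate, in the colour its label names. With the file under its own sample it equaled either dye at no more than 0.689% of probes. Read as attached, the scanner files would turn the ratios of animals 1, 2 and 4, whose dyes were exchanged, but not that of animal 3. Read as in the value table, the 10 placental markers on a list were each higher in endometrium in 4 of 4 animals. Their median log2 ratio in animal 3, whose direction is the same under either reading, was 5.73. The paper had named these 10 as upregulated in endometrium on these samples, so their direction is not independent evidence for that reading. Under either reading none of the 7 genes was called.

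No gene of the 7 was called differentially expressed. Read against the 1.35% of all tested probes that were called, a count of 0 of 7 is near the background. The tissues overlapped for all 7 genes, where 2.7% of all tested probes had every endometrial level above every blood level and 3.37% the reverse. LSS, in the middle of the pathway, had the highest mean log2 ratio, and TMEM97 was the only gene of the 7 that was higher in endometrium in every animal. For HMGCS1, IDI1 and SQLE the mean log2 ratio was below 0, and for FDPS and FDFT1 it was above 0, in each case by less than its standard error, and the sign differed between animals. In animal 2 all 7 genes were higher in endometrium, whereas animals 1, 3 and 4 had 3, 3 and 2 genes above 0.

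HMGCS1 condenses acetyl-CoA with acetoacetyl-CoA to HMG-CoA in the cytosol. Its level in blood was 12.86, 12.97, 15.20 and 14.12 in animals 1 to 4, and its level in endometrium was 12.16, 14.71, 13.43 and 14.41. Animal 3 had the highest level in blood and animal 2 the highest in endometrium, and the tissues overlapped. The mean log2 ratio was -0.11 (SE 0.65, n = 4 animals, limma adjusted p = 0.960), with a 95% interval from -1.65 to 1.43 and 2 of 4 animals higher in endometrium.

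IDI1 interconverts the isoprenoid building blocks isopentenyl and dimethylallyl diphosphate. In blood it was at 12.90, 12.78, 14.01 and 14.05 in animals 1 to 4, and in endometrium at 12.32, 13.83, 12.87 and 13.93. Blood cells of animals 3 and 4 lay above those of animals 1 and 2, as for HMGCS1, and the tissues overlapped. The mean log2 ratio was -0.20 (SE 0.53, n = 4 animals, limma adjusted p = 0.893), with a 95% interval from -1.44 to 1.05 and 1 of 4 animals higher in endometrium.

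FDPS makes farnesyl diphosphate, which also feeds protein prenylation and dolichol synthesis. Its level in blood was 14.01, 13.23, 13.35 and 13.69 in animals 1 to 4, a range of 0.78, and in endometrium 13.47, 15.17, 14.08 and 13.35, a range of 1.82. The endometrial cells of animal 2 lay above every other sample, and the remaining samples of both tissues overlapped. The mean log2 ratio was 0.45 (SE 0.57, n = 4 animals, limma adjusted p = 0.747), with a 95% interval from -0.90 to 1.80.

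FDFT1 is squalene synthase, the first enzyme that serves sterols alone. In blood its level was 12.03, 11.13, 13.25 and 12.82 in animals 1 to 4, and in endometrium it was 12.36, 13.44, 13.15 and 11.93. Animal 2 had both the lowest level of blood and the highest of endometrium, and the tissues overlapped. The mean log2 ratio was 0.41 (SE 0.62, n = 4 animals, limma adjusted p = 0.793), with a 95% interval from -1.06 to 1.88.

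SQLE, squalene epoxidase, adds the oxygen that lets squalene be folded into a sterol, and it is a step that limits the rate of the pathway. Its level in blood was 13.75, 13.93, 15.60 and 15.19 in animals 1 to 4, and in endometrium 13.12, 15.27, 12.83 and 15.05. Animal 3 had the highest blood level and the lowest endometrial level, a log2 ratio of -2.78, the lowest of any of the 7 genes in any animal. Animal 2 went the other way, at 1.33. The mean log2 ratio was -0.55 (SE 0.70, n = 4 animals, limma adjusted p = 0.748), with a 95% interval from -2.22 to 1.11.

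LSS, lanosterol synthase, closes the sterol ring system. By the probe that carries its symbol, the level in blood was 8.62, 8.88, 7.83 and 9.45 in animals 1 to 4, and the level in endometrium was 12.25, 12.26, 11.84 and 8.98. The endometrial cells of animals 1, 2 and 3 lay above all 4 blood samples, and those of animal 4 lay below the blood cells of that animal. The log2 ratios were 3.63, 3.38, 4.01 and -0.47, with a mean of 2.64 (SE 0.81, n = 4 animals) and a 95% interval from 0.73 to 4.55. This is a fold change of 6.22, with an interval from 1.66 to 23.4. The adjusted p was 0.214 with limma, and LSS was the only gene of the 7 with a fold change over 2 and an unadjusted p not above 0.05, a rule that 16% of all tested probes passed. Without animal 4 the mean log2 ratio was 3.68 and the limma adjusted p was 0.0696.

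The second probe of LSS gave another picture. Its level in blood was 9.29, 9.14, 10.25 and 10.14 in animals 1 to 4, and its level in endometrium was 8.88, 10.84, 10.63 and 8.90. Its log2 ratios were -0.42, 1.70, 0.37 and -1.23, so that 2 of 4 animals were higher in endometrium and the tissues overlapped. The mean was 0.10 (SE 0.59, n = 4 animals, limma adjusted p = 0.955), with a 95% interval from -1.30 to 1.51 that ends below the mean of the first probe. Over the 8 samples, which are the tissues of 4 animals, the 2 probes had a correlation of 0.30. The files describe the first probe as transcript variant 1 and list both under 1 accession, and no test was applied to the difference between them. In animal 2 both probes were higher in endometrium and in animal 4 both were lower, whereas in animal 1 their ratios had opposite signs and in animal 3 they were 4.01 and 0.37.

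TMEM97, the sigma-2 receptor, is a sterol-regulated membrane protein that binds the cholesterol transporter NPC1 and takes part in the uptake of LDL cholesterol. Its level in blood was 11.92, 11.16, 12.24 and 11.70 in animals 1 to 4, and its level in endometrium was 12.66, 12.92, 13.21 and 12.01. Endometrium was higher in every animal, by 0.74, 1.77, 0.97 and 0.31, although the endometrial cells of animal 4 lay below the blood cells of animal 3. The mean log2 ratio was 0.95 (SE 0.47, n = 4 animals, limma adjusted p = 0.374), a fold change of 1.93, with a 95% interval from -0.18 to 2.07. When the tissues were exchanged within the animals in an exact permutation test, 2 of 16 arrangements gave a mean as far from 0, which is the smallest share that 4 animals allow. The share of all tested probes higher in endometrium in 4 of 4 animals was 9.82%, and the share higher in blood in 4 of 4 was 15.2%. By its own analysis of variance the paper lists TMEM97 as higher in endometrium on these samples, whereas it was not called here. TMEM97 is thus among the genes selected on these samples, so its direction here is not independent evidence.

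**Figure D1:**
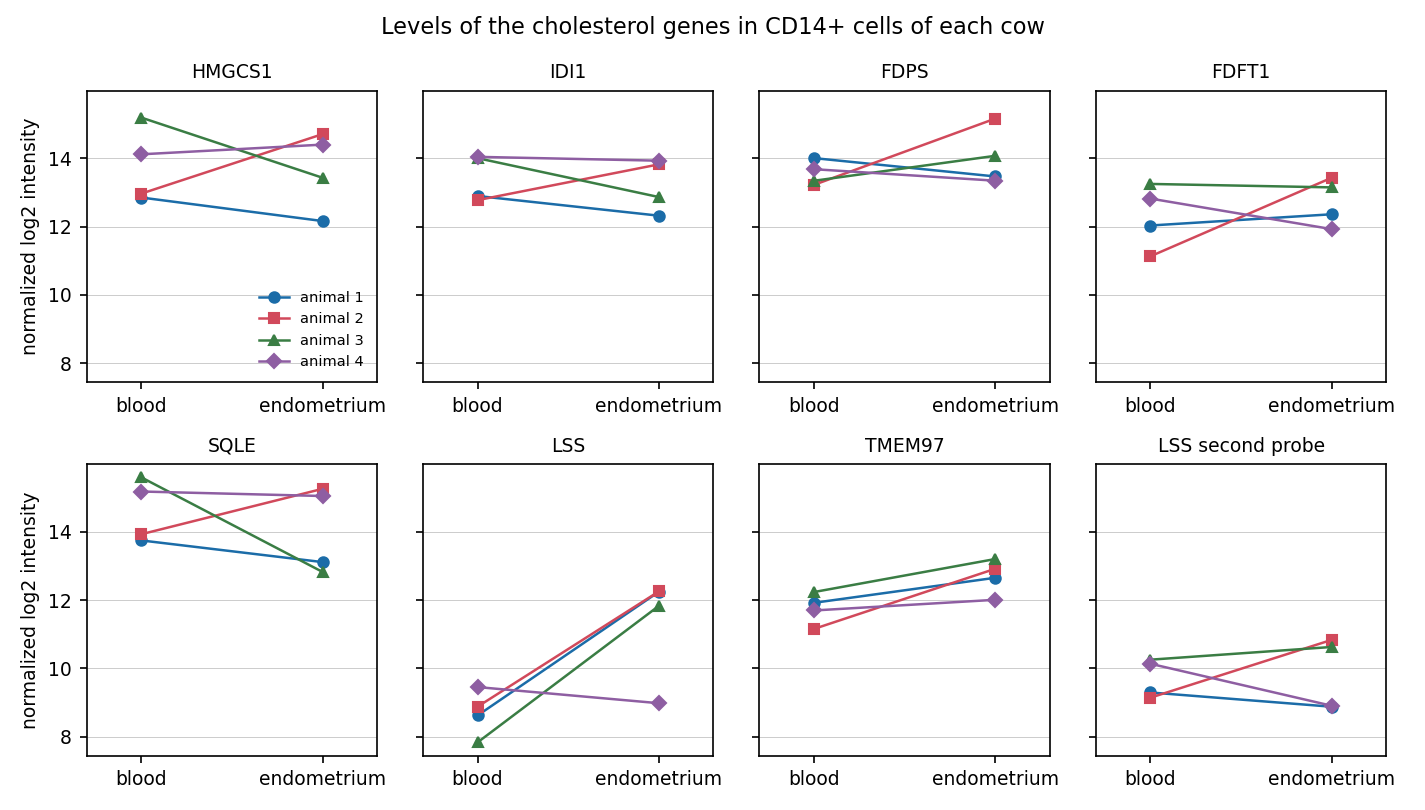
Normalized log2 intensity of each probe (y axis) in CD14+ cells of blood and endometrium (x axis), with 1 line for each of 4 animals and each point the mean of 2 technical replicates. The endometrial point lies higher in 4 of 4 animals for TMEM97 and in animals 1, 2 and 3 for the first LSS probe, and for HMGCS1, IDI1 and SQLE it lies higher in animal 2 and lower in animal 3.

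**Figure D2:**
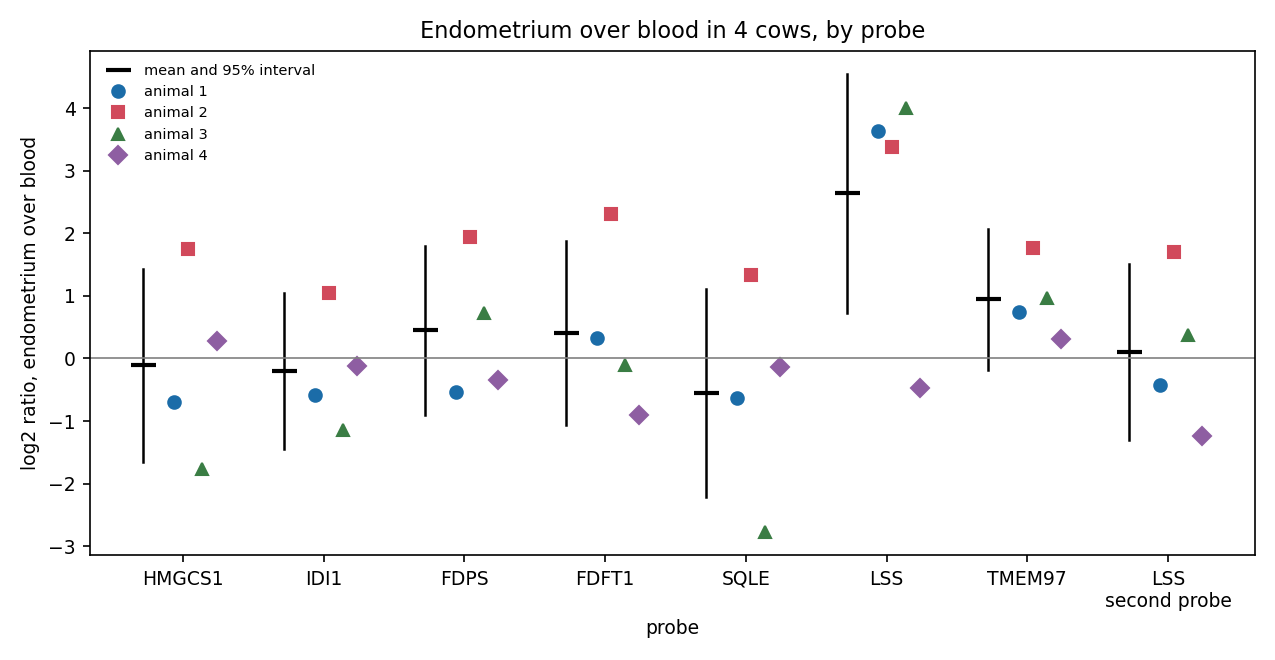
Log2 ratio of endometrium over blood (y axis) for each probe (x axis), with the 4 animals as symbols and the mean with its 95% interval from limma as a black bar and line. Animal 2 is above 0 for every probe, and of the 8 intervals only that of the first LSS probe, from 0.73 to 4.55, lies wholly above 0.

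Some of the genes varied together between samples. Over the 8 samples, HMGCS1 and IDI1 had a correlation of 0.93, SQLE and IDI1 of 0.93, and SQLE and HMGCS1 of 0.87. TMEM97 went with LSS at 0.76 and with FDFT1 at 0.75, whereas LSS and SQLE, whose enzymes act in sequence, had a correlation of -0.45. These are descriptions over 8 samples, with blood and endometrium of an animal hybridized on the same arrays. Between animals, the SD of SQLE was 0.92 in blood and 1.27 in endometrium, and that of TMEM97 was 0.46 and 0.51, where the median over all tested probes was 0.72 and 1.07.

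Further enzymes of the pathway were examined in the same way. Of 15 further enzymes sought, 13 had a probe and 12 were tested, and 0 were called. Of these 12, apart from the 6 enzymes above, 10 had a log2 ratio above 0 in animal 2, where 46.8% of all tested probes did. In animals 1, 3 and 4, 5, 2 and 4 of the 12 were above 0, beside 42.0%, 47.2% and 47.0% of all tested probes. The median log2 ratio of the 12 enzymes was -0.79, 1.23, -0.51 and -0.15 in animals 1 to 4, and that of all tested probes was -0.24, -0.10, -0.13 and -0.05. The exceptions in animal 2 were ACAT2, at -0.82, and LBR, at -0.30. Animal 2 was at day 239 of pregnancy, between animals 1 and 3, and with 1 animal at each day the day and the animal cannot be told apart.

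Among these 12 further enzymes, PMVK and EBP were higher in endometrium in 4 of 4 animals, as were 9.82% of all tested probes. PMVK, which phosphorylates mevalonate for the second time, had log2 ratios of 0.65, 2.67, 1.04 and 1.15 in animals 1 to 4 and a mean of 1.38 (SE 0.52, limma adjusted p = 0.272). EBP, a sterol isomerase of the later steps, had 0.78, 1.23, 1.16 and 0.72 and a mean of 0.97 (SE 0.44, limma adjusted p = 0.331).

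ACAT2 and LBR, of the same 12, were higher in blood in 4 of 4 animals, as were 15.2% of all tested probes. ACAT2 makes the acetoacetyl-CoA that HMGCS1 uses, and its mean log2 ratio was -1.26 (SE 0.54, limma adjusted p = 0.319). LBR, the lamin B receptor with sterol reductase activity, had a mean of -1.36 (SE 0.68, limma adjusted p = 0.375), with -3.67 in animal 3. DHCR7, which makes cholesterol from 7-dehydrocholesterol, had a mean of 0.23 (SE 0.49, limma adjusted p = 0.861). None of these 5 enzymes passed the adjustment.

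**Figure D3:**
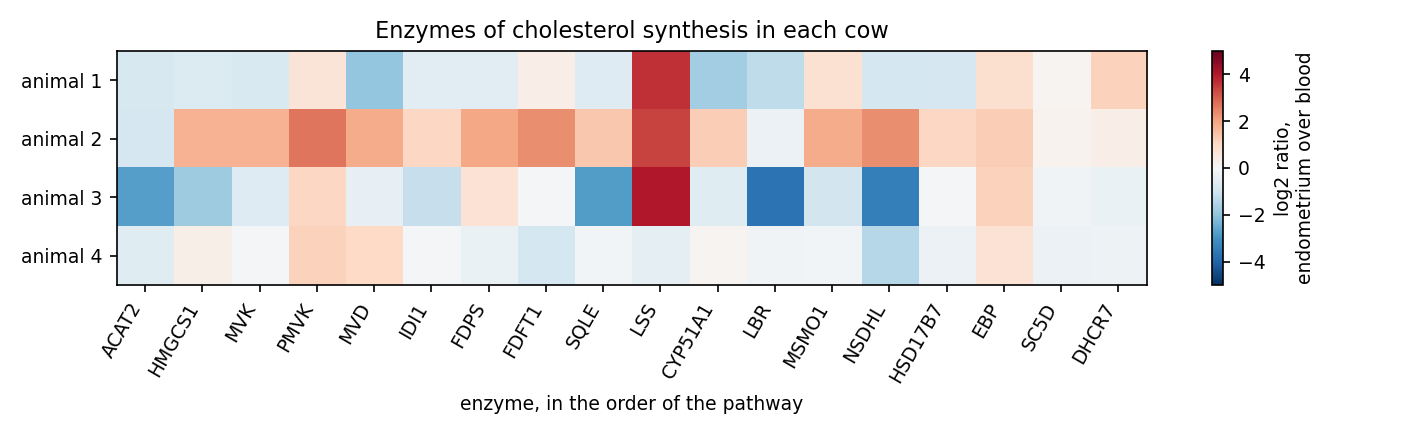
Log2 ratio of endometrium over blood (colour, red higher in endometrium and blue higher in blood) for 18 enzymes in the order of the pathway (x axis) in each of 4 animals (y axis), by the brightest tested probe of each gene. Animal 2 has 16 of 18 enzymes above 0, the 6 described first among them, and LSS stands out in animals 1, 2 and 3.

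The factors that sense sterols were next. Of 15 regulators sought, 12 were tested and 0 were called. In 4 of 4 animals 1 of the 12 was higher in endometrium and 3 were higher in blood. The shares of all tested probes were 9.82% and 15.2%. PGRMC1, a haem-binding membrane protein that binds INSIG1 and SCAP, was above 0 in every animal, with a mean log2 ratio of 1.61 (SE 0.57, limma adjusted p = 0.249). INSIG1, which keeps SCAP in the endoplasmic reticulum when sterols are plentiful and is itself raised by SREBF2, was higher in blood in 4 of 4, by log2 ratios of -0.84, -1.28, -0.99 and -0.62. Its mean was -0.93 (SE 0.44, limma adjusted p = 0.351). MBTPS1, a protease that activates the SREBF factors, and SREBF1 were also higher in blood in 4 of 4 animals, with means of -0.83 (limma adjusted p = 0.443) and -0.64 (limma adjusted p = 0.521). SREBF2 had log2 ratios of -0.97, 0.28, -2.09 and -0.20 and a mean of -0.75 (SE 0.55, limma adjusted p = 0.539), and animal 2 was the only animal above 0.

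Of 13 genes of uptake and transport through endosomes, 12 were tested and 0 were called. In 4 of 4 animals 2 of the 12 were higher in endometrium and 2 were higher in blood. The shares of all tested probes were 9.82% and 15.2%. NPC1, which moves cholesterol out of lysosomes and which TMEM97 binds, was at -1.86, -0.14, -0.80 and -1.16, higher in blood in every animal, with a mean of -0.99 (SE 0.49, limma adjusted p = 0.368). OSBP, an oxysterol-binding transfer protein, was higher in blood in 4 of 4 as well, with a mean of -1.32 (SE 0.46, limma adjusted p = 0.246). The lysosomal lipase LIPA and OSBPL1A were higher in endometrium in 4 of 4, with means of 1.25 (limma adjusted p = 0.318) and 1.62 (limma adjusted p = 0.219). OSBP and OSBPL1A are in a list the paper made from these samples, so their direction is no independent evidence.

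The list of efflux, esters and oxysterols held the only call among the pathway genes. Of 12 genes sought, 8 were tested and 1 was called. In 4 of 4 animals 4 of the 8 were higher in endometrium and 2 were higher in blood. The shares of all tested probes were 9.82% and 15.2%. APOE, the apolipoprotein that macrophages secrete with exported cholesterol, was upregulated in endometrium, with log2 ratios of 4.36, 3.14, 4.88 and 4.03 in animals 1 to 4. Its mean was 4.10 (SE 0.49, limma adjusted p = 0.0134), a fold change of 17.2. The call was lost with scanner signals corrected by normexp, where the mean was 2.87 (limma adjusted p = 0.166), without pairing (limma adjusted p = 0.350), and without animal 1, 3 or 4 (limma adjusted p = 0.0764, 0.0510 and 0.0689). CH25H and CYP27A1, which make oxysterols that are ligands of liver X receptors, and the receptor NR1H3 itself were above 0 in every animal. Their mean log2 ratios were 1.99 (limma adjusted p = 0.166), 2.46 (limma adjusted p = 0.167) and 1.06 (limma adjusted p = 0.305), and none was called. CYP27A1 was at 0.34 in animal 1 and between 3.06 and 3.30 in the other animals, and its mean was 3.17 without animal 1 and 1.53 with the normexp signals normalized by loess and quantiles. The exporter ABCG1 and the second receptor NR1H2 were higher in blood in 4 of 4, with means of -1.39 (limma adjusted p = 0.329) and -1.47 (limma adjusted p = 0.215). APOE, CH25H, CYP27A1, NR1H3 and NR1H2 are in lists that the paper chose on these samples, and their direction is not independent of that choice.

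Of 10 fatty acid synthesis genes under the same family of factors, 7 were tested and 0 were called. In 4 of 4 animals 1 of the 7 was higher in endometrium, beside 9.82% of all tested probes. SCD, the stearoyl-CoA desaturase, was, by its brightest probe, higher in the endometrium of every animal, with log2 ratios of 2.71, 3.16, 1.67 and 0.65 and a mean of 2.05 (SE 0.57, limma adjusted p = 0.186). SCD had 3 tested probes whose mean log2 ratios ran from -0.07 to 2.05, so the probes disagreed in sign. SCD too is in a list that the paper chose on these samples.

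**Figure D4:**
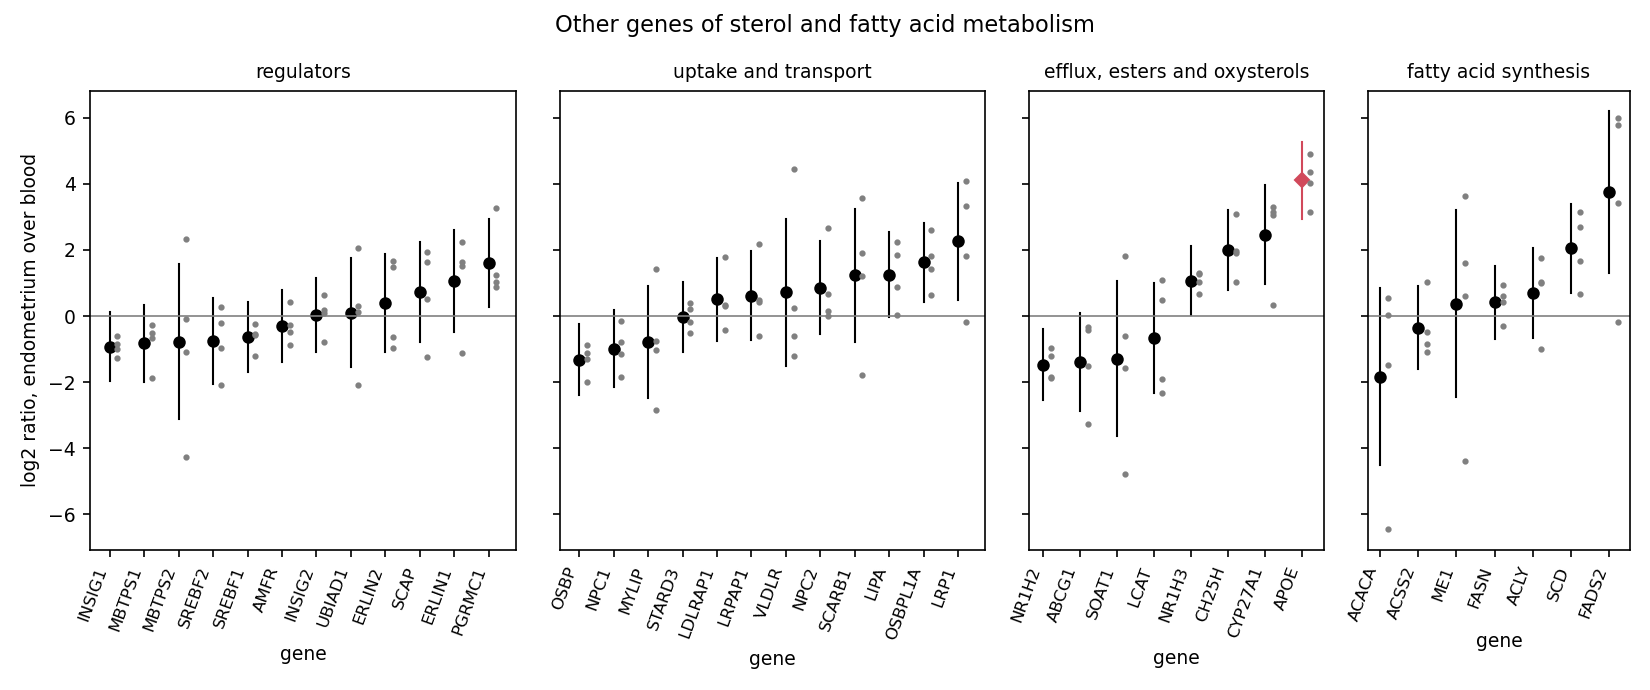
Mean log2 ratio of endometrium over blood with its 95% interval from limma (y axis, black) for each tested gene of 4 lists (x axis), with the 4 animals as grey dots. APOE, drawn as a red diamond at 4.10, is the only gene called, and its 4 animals lie between 3.14 and 4.88.

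Among the 16646 tested probes other than the 7, the second LSS probe included, those whose pattern over the 8 samples was most like the mean of the 7 genes were BRD3, with a correlation of 0.92, LOC615278 with 0.91, and RANGAP1, KIAA0683 and INTS6, each with 0.91. Those least like it were probes of LOC510341, with -0.95, IQGAP2, with -0.94, and DUSP10, with -0.94. The 12 further enzymes ran from -0.14 for ACAT2 to 0.85 for MSMO1, which ranked 31st. In the other pathway lists the correlation ran from -0.71 for LCAT, the enzyme that esterifies cholesterol in plasma, to 0.81 for SCD, and INSIG1 was at -0.44. The 7 genes, each of them part of the mean, had correlations with it from 0.46 for SQLE and 0.48 for LSS to 0.88 for FDFT1. The mean is therefore not a pattern that all 7 follow closely. The ranks rest on 8 samples in which tissues of an animal share arrays, and they are given as a description.

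The identity of the sorted cells bears on these ratios, because in bulk samples fewer cells of a type and less RNA per cell cannot be told apart. CD14 itself had log2 ratios of -2.09, 0.31, 0.65 and 0.44 and a mean of -0.17 (limma adjusted p = 0.919), and CD68, a lysosomal macrophage protein, a mean of 1.61 (limma adjusted p = 0.276). Of 6 tested monocyte and macrophage genes 0 were called, their median log2 ratio was 1.95, and 3 were higher in endometrium in 4 of 4 animals. These were CSF1R, the receptor of macrophage colony-stimulating factor, with a mean of 3.53 (limma adjusted p = 0.0643), the Fc receptor FCGR1A, with 4.81 (limma adjusted p = 0.131), and the scavenger receptor CD163, with 2.30 (limma adjusted p = 0.181). ITGAM, an integrin of myeloid cells, was at -1.36 (limma adjusted p = 0.326). FCGR1A was well above background in 6 of 8 endometrial and 2 of 8 blood channels. For ITGAM this held in 2 of 8 endometrial and 4 of 8 blood channels, so both ratios involve levels near background. At an unadjusted p and the same fold change 4 of the 6 passed, and the settings with an adjusted p called 0 or 1. All 10 trophoblast markers were upregulated in endometrium, 5 of them also with scanner signals corrected by normexp and 0 without animal 4, and 4 of the 10 were at background in all blood channels. The summed level of this list ran from 10.4 to 11.8 in blood and from 15.6 to 17.3 in endometrium, on the log2 scale. Of 10 epithelial markers 6 were upregulated, 0 with the normexp signals or without animal 4 and 1 without pairing. Each of the 10 was above 0 in every animal. The median log2 ratio of this list was 3.65, 3.78, 4.73 and 2.69 in animals 1 to 4. Its summed level ran from 10.9 to 13.2 in blood and from 15.3 to 18.5 in endometrium. Of 9 stromal markers 2 were upregulated, 0 with the normexp signals, with no filter on dim probes, without pairing or without animal 1, 3 or 4. Their list had a median log2 ratio of 0.04 in animal 2 and of 5.96, 3.87 and 3.66 in animals 1, 3 and 4. Of 8 B cell and 6 granulocyte markers, 2 of each were called, higher in blood. The granulocyte calls, CCR3 and CXCR2, and the B cell call POU2AF1 involve endometrial levels near background. For each of these 3 genes, 2 of 8 endometrial channels stood clear of it. The granulocyte list had a median log2 ratio of -4.04, -3.77, 1.55 and -0.34 in animals 1 to 4. In these animals 0, 0, 4 and 3 of its 6 genes were above 0. The medians of the B cell list were -3.11, -3.39, -4.24 and -0.63. With the normexp signals, or with any 1 animal left out, 0 of either list were called, and the B cell calls also fell to 0 without pairing and with animal as a random block. For T and natural killer cells 0 of 10 were called, and 5 were higher in endometrium in 4 of 4 animals. Over all tested probes that share was 9.82%. These counts use the brightest probe of each gene. For granzyme A the paper names another entry as the most raised gene in endometrium, and that entry is not counted here. Each of these lists holds genes that the paper selected on these samples, all 10 trophoblast markers among them. The directions and counts of the lists are therefore not independent of that choice. The endometrial sort was also less pure than the blood sort, as the labels state from flow cytometry. The part of these other cells in the ratios of the cholesterol genes was not tested.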

How the data were processed

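CD14+ cells of endometrium and blood from 4 cows were profiled on Agilent Bovine 4x44K arrays, 2 technical replicates per animal. The authors deposited a table of log2 values after lowess in each array and quantile normalization of the 16 channels, in which each column has a median of 8.00. Quantiles give every channel the same set of values, so that a shift of all genes cannot be seen. The deposited scanner files hold spot intensity in each dye, and per the file headers they come from Feature Extraction 10.5.1.1, whereas the labels name 9.5. Direction and centring of the table beyond this are not stated. By rank, each column equaled the processed intensity of the labeled dye in the file of the other technical replicate, within 0.001, and scanner files were read so. The 2 spots of a probe stand exchanged in many rows of the table, and the 2 spots were averaged.

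A probe was tested if its spots were well above background in at least 4 of 8 channels of at least 1 tissue, which left 16653 of 21475 probes. Ratios within an animal were fitted with lmFit and eBayes (limma 3.58.1, R 4.3.3, statmod 1.5.0). Of the names, 3519 were found by accession, 9987 by gene identifier and 395 by gene name in RefSeq, and 7574 were kept from the array. The limma p-values test the mean ratio against the spread between 4 animals, moderated by the spread over all tested probes. Fits were tested on simulated data. Figures used Python 3.11.15 and matplotlib 3.10.9.

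Genes, lists and tests were chosen with earlier results of these data known. Named were all probes of the 7 genes, pathway genes called or of the same sign in 4 of 4 animals, and SREBF2, INSIG1, DHCR7 and NPC1. Also named were the 5 probes most and the 3 least like the mean of the 7 genes, and CD14 and CD68. Of several probes the brightest was taken. The labels give both tissues of an animal 1 number, and deviations of its tissues from the tissue means had a correlation of 0.628, 0.372, 0.239 and 0.452 in animals 1 to 4. Alternatives changed the intensities, normalization, filter, pairing, technical replicate, dye, animals, test and threshold. Promoters and proteins of the 7 genes were not analysed here. A few genes of the lists are not reported here and are left out of their counts. Columns of gene annotation and the qPCR of the study were not used here. Depth has no counterpart on arrays, and the number of arrays limits precision.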

Additional observations from a re-analysis of the deposited data

Results flagged for a closer look

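Each of 24 groups of 4 values, the levels of 8 probes in blood and in endometrium and their log2 ratios, was examined for an animal far from the others, and 2 stood out. In endometrium, the first LSS probe had a level of 8.98 in animal 4 and of 11.84 to 12.26 in the others, a gap that is 0.871 of the whole range, above Dixon's 95% critical value for 4 samples. Its log2 ratio in animal 4, -0.47 beside 3.38 to 4.01, had a gap of 0.861. Both come from the same endometrial sample of animal 4. Chance alone would be expected to give such a gap in about 1 of 20 groups. The second LSS probe gave no such gap.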

How the results depend on the processing

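None of the 7 genes, nor the second LSS probe, was called under any alternative with an adjusted p. At an unadjusted p and the same fold change, 1 of the 7 (LSS) passed limma and 0 passed the methods' analysis of variance. With all animals and the tissues of the value table, the log2 ratio of LSS ran from 2.07 to 2.67 and that of TMEM97 from 0.88 to 1.00. Leaving out 1 animal at a time gave 2.18 to 3.68 for LSS and 0.67 to 1.16 for TMEM97, and turned the direction of the other 5 genes and of the second LSS probe. HMGCS1 then ran from -0.72 to 0.45 (0.09 without animal 1 and 0.45 without animal 3), IDI1 from -0.61 to 0.12, SQLE from -1.18 to 0.19, FDPS from -0.048 to 0.78, FDFT1 from -0.22 to 0.85 and the second LSS probe from -0.43 to 0.55. IDI1 and SQLE turned without animal 3, and FDPS, FDFT1 and the second LSS probe without animal 2. DHCR7 ran from -0.076 (without animal 1) to 0.42.

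Of 224 probes called over all probes, 11 remained with scanner signals corrected by normexp and normalized by loess and quantiles, 5 with loess alone, and 123 with no filter on dim probes, where more probes were tested. Leaving out 1 animal gave 0 to 180 calls, 64 without animal 1, 95 without animal 3 and 0 without animal 4. The methods' analysis of variance gave 0 calls after adjustment and 1229 at an unadjusted p, and limma gave 2670 at an unadjusted p. The median log2 ratio of all tested probes was -0.14, and -0.02 or 0.02 with the normexp signals. The cause of these differences was not tested. Apart from the 7 genes, 1 pathway gene (APOE) was called. It was 0 with both normexp settings, 0 to 1 with 1 animal left out and 0 with the analysis of variance, which gave 8 unadjusted beside 12 with limma.

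Without pairing, that is with no replicate block, 38 probes and 0 pathway genes were called, and APOE lost its call. LSS then had a limma adjusted p of 0.400 and TMEM97 one of 0.523, and none of the 7 genes changed its call.

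With the tissues of the scanner files as attached, 0 probes and 0 pathway genes were called, and 20 of 29 genes or probes followed turned, which the exchange of tissues in animals 1, 2 and 4 brings about by construction. The log2 ratio was then -0.084 for FDPS, -0.46 for FDFT1, -0.63 for LSS, -0.46 for TMEM97, -0.40 for DHCR7, -0.39 for EBP, -0.85 for PMVK, 0.43 for INSIG1 and 0.35 for SREBF1. It was -0.13 for LIPA, 0.59 for NPC1, 0.76 for OSBP, -0.31 for OSBPL1A, 1.22 for ABCG1, -1.66 for APOE, -1.01 for CH25H, -0.89 for CYP27A1, 0.56 for NR1H2, -0.54 for NR1H3 and -1.21 for SCD. Technical replicate, dye, stricter filter and processed signals changed no call among these 29. Signal over background did not limit the 7 genes, which were above it in every channel.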
